A study of Mus musculus with 2 samples.

Results

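The genes described here build the Z-disc and the M-band, the structures that anchor thin and thick filaments in the sarcomere of striated muscle. They were examined in a genome-wide list of binding sites of ISL1, a transcription factor with LIM domains and a homeodomain that is needed in the heart's pacemaker, the sinoatrial node. The 8 genes were the Z-disc genes Pdlim3, Pdlim5, Nebl, Ldb3, Actn2 and Csrp3 and the M-band genes Myom1 and Myom2. Their peaks were all peaks whose nearest transcription start site (TSS) belonged to 1 of the 8, at any distance, which gave 4 of the 1483 peaks (0.27%, exact Clopper-Pearson 95% interval 0.0735 to 0.689). The genes were chosen by their place in the sarcomere and on earlier results from this same list, including the presence of peaks and their scores, so how many of them had a peak is a description. Of the 8 genes, 4 had 1 peak each: Pdlim5, Nebl, Pdlim3 and Myom1. Ldb3, Actn2, Csrp3 and Myom2 had none.

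The ISL1 immunoprecipitate and the input DNA, 1 library each, came from Hcn4-H2BGFP mice of ICR background at postnatal day 1 to 3. The cells were sinoatrial node cells carrying a green fluorescent histone under control of Hcn4, which encodes a pacemaker current channel, and flow sorting collected those with the fluorescence. Both groups thus carried the reporter, and the labels name no treatment. Peaks came from the ISL1 library, and the input library was not analysed here. Without a replicate, no value below carries an error between animals or preparations, and no difference between peaks was tested. A peak list measures no RNA, so the identity of the sorted cells was not checked by markers and binding was not set against expression.

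At the Z-disc, actin filaments of neighbouring sarcomeres are crosslinked by alpha-actinin 2, the product of Actn2. PDLIM3, PDLIM5 and the LDB3 protein bind alpha-actinin and carry a PDZ domain together with LIM domains, CSRP3 is the muscle LIM protein, and nebulette from Nebl binds actin next to the Z-disc. The M-band is the middle of the sarcomere, where the myomesins encoded by Myom1 and Myom2 tie thick filaments to titin. Pacemaker cells are known for sparser and less ordered sarcomeres than working heart muscle cells.

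The Pdlim3 promoter is shown first, since it carried the only promoter peak among these genes. It is followed by the stretches before a start site of Pdlim5, whose peak lay elsewhere, and of Actn2, which had no peak. The RefSeq start sites were taken as given, and whether transcription begins at them in these cells was not measured. Each is the 250 bases before a RefSeq start site on the gene's own strand in GRCm38.p6, at chr8:45885237-45885486 (plus strand) for Pdlim3, chr3:142391851-142392100 (minus strand) for 1 of 2 Pdlim5 start sites and chr13:12340733-12340982 (minus strand) for Actn2. Capitals mark the homeodomain core TAAT or its reverse complement ATTA. Sequence under the peaks themselves was not used here, because no mm9 genome was used.
Pdlim3: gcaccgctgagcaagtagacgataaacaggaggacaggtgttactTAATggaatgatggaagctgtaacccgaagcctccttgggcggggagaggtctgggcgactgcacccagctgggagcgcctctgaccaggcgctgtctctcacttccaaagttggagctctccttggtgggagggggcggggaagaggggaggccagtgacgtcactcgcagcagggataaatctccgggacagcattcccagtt
Pdlim5: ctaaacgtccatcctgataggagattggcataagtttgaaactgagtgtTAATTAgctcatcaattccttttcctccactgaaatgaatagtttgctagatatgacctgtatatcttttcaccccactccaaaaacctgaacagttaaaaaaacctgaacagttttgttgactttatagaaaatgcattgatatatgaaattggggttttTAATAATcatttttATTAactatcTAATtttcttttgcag
Actn2: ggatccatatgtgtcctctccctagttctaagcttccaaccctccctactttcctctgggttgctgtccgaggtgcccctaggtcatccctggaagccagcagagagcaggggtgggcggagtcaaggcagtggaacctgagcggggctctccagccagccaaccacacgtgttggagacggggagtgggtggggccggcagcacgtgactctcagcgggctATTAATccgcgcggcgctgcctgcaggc

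The promoter peak of Pdlim3 lay on chromosome 8 at 46970450 to 46970594 (mm9) and its centre was 317 bases upstream of the TSS of the transcript NM_016798. The authors annotated it as promoter. Its score was 17.8, a number per peak given by the authors, which ranks peaks within the list. Of the 48 promoter peaks in the list (3.24% of all peaks), 7 scored as high or higher, and the 48 had a median of 12.3 with quartiles of 11.9 and 15.1. The Pdlim3 peak was thus in the upper part of the promoter peaks, and it equalled the upper quartile of the whole list (17.8; median 15.1). The focus ratio, HOMER's fraction for how tightly the tags gather around a peak's centre, was 0.588 at Pdlim3, and 121 of the 1483 peaks had a lower one. Among promoter peaks the focus ratio had a median of 0.767.

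The edges of this 144 bp peak were 245 and 389 bases upstream of the start in mm9. The printed promoter reaches 250 bases upstream in the other build, so it covers the stretch between the peak and the gene and little or none of the peak itself. It held 1 TAAT, which began 205 bases upstream of the start, and neither of the longer LIM-homeodomain motifs CTAATG and CTAATT. It also held 2 E-boxes (CANNTG) at 216 and 139 bases upstream and 2 matches of GGGCGG, the SP-factor motif, at 168 and 71 bases upstream. All motifs were searched on both strands in windows of 250 bases before to 50 after the start.

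A TAAT is no mark of the Pdlim3 promoter. It was present in 12 of the 13 promoter windows of the 8 genes, where Myom2 had no window, and in 58.0% of all 32851 windows. The 2 Ldb3 windows overlap and share the same match, so the 13 windows do not count independently. The printed Pdlim5 stretch, with a GC content of 33.3% over its whole window, held 6 copies, some of them overlapping. It lies inside the gene, downstream of the other Pdlim5 start site, and whether it acts as a promoter was not tested. The window of the other Pdlim5 start site, with a GC content of 64.7%, held 1 copy, as did that of Pdlim3 (59.7%), and the printed Actn2 promoter (64.7%) held 2 overlapping copies. No promoter peak was listed for Pdlim5 or Actn2. The motif CTAATG was in 1 of the 13 windows, the other start site of Pdlim5, against 7.36% of all windows. CTAATT was in 2 of the 13, the window of the printed Pdlim5 stretch and 1 of the 4 Nebl windows, against 8.21% of all windows. With so few windows these counts describe the sequences only.

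**Figure D1:**
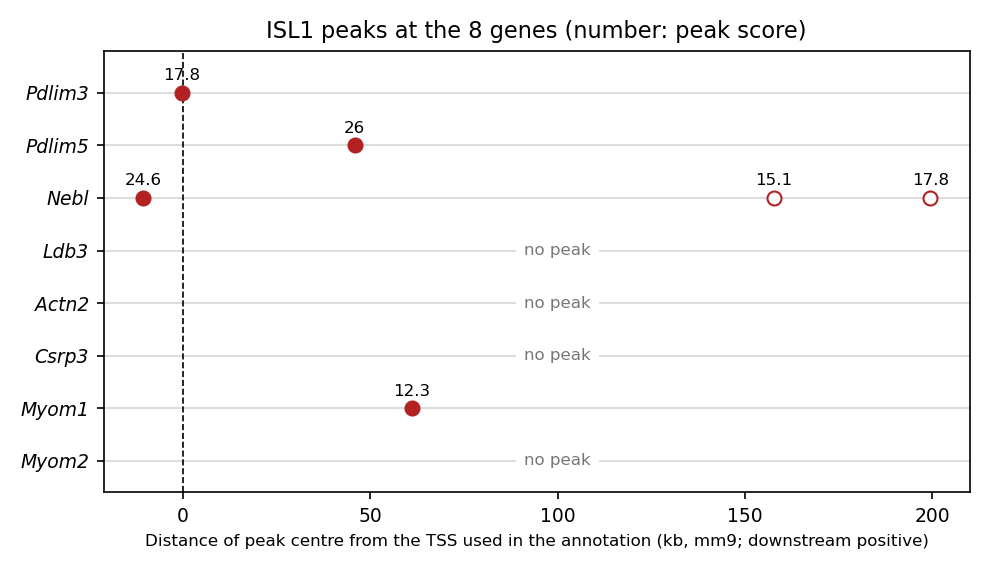
Position of each ISL1 peak along the 8 genes, as distance in kb (mm9) of the peak centre from the annotated TSS of the gene, downstream positive; numbers are peak scores. Filled points are the 4 peaks listed under a member gene and open points are 2 peaks inside Nebl that are listed under Mir6419. Pdlim3 has its peak centre 317 bases upstream of the TSS, the other peaks lie 10.7 kb or more away, and 4 genes have no peak.

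The other 3 peaks listed under these genes were distal, at 10.7, 45.9 and 61.1 kb from the nearest TSS. They scored 24.6, 26.0 and 12.3 (median 24.6), against 17.8 at the 1 promoter peak. The promoter peak therefore scored below 2 of the distal peaks and above the third. Over the 4 peaks the median distance was 28.3 kb, against 83.4 kb over all peaks. All 4 lay within 100 kb, as did most peaks of the list, given its median. Of the 4 peaks 2 lay upstream and 2 downstream of the TSS, against 611 and 872 in the whole list. With 4 peaks at chosen genes, nothing is read from these values.

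Pdlim5 had the highest score of the 4 peaks. The PDLIM5 protein, also called ENH, binds alpha-actinin and protein kinase C. Its peak lay on chromosome 3 at 142008879 to 142009023, in intron 3 of 9 of the transcript NM_001190853 and 45.9 kb downstream of the TSS of another Pdlim5 transcript. The score was 26.0. Only 80 peaks of the list scored higher and 28, this one included, had the same value. Among the 605 intronic peaks 45 scored as high or higher. The focus ratio was 0.625, with 228 peaks below it.

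The gene next to Pdlim5 on one side is Bmpr1b, which encodes a receptor of bone morphogenetic proteins, and beyond it lies the netrin receptor gene Unc5c. Listed under them were 3 and 10 peaks, and 1 of the 3 under Bmpr1b lay inside Unc5c. The Pdlim5 peak stood apart from these, with the nearest of them, a Bmpr1b intron 1 peak of score 13.7, 286 kb away. Gbp5, Gbp7 and Gbp3, the 3 protein-coding genes on the other side in the order of GRCm38.p6, were nearest to no peak.

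Nebl had 3 peaks rather than 1 once the gene body was taken into account. Nebulette is the heart's member of the nebulin family, and the same locus also makes a LIM-domain form, which the file lists under the alias Lnebl. The peak listed under Nebl was intergenic, on chromosome 2 at 17663283 to 17663427, 10.7 kb upstream of the TSS of NM_028757. Its score was 24.6, with 108 peaks of the list above it, and 73 of the 798 intergenic peaks scored as high or higher. Its focus ratio of 0.72 was near the list's median of 0.739.

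The other 2 peaks lay in intron 3 of 6 of the same Nebl transcript. They are listed under the microRNA gene Mir6419, whose TSS was closer and which lies inside Nebl in GRCm38.p6. One was at 17494891 to 17495035 with a score of 15.1, 158 kb downstream of the Nebl TSS and 9.82 kb from that of Mir6419. The other was at 17453121 to 17453265 with a score of 17.8, 200 kb downstream of the Nebl TSS and 31.9 kb from that of Mir6419. The Nebl TSS here is that of NM_028757, and whether this transcript encodes nebulette or the LIM-domain form was not checked. RefSeq has 4 Nebl promoter windows in GRCm38.p6, and distances to the other Nebl start sites were not measured. The scores of the 3 peaks ran from the list's median to above its upper quartile. The highest was that of the peak outside the transcript, but counting error, given below, leaves their order unresolved.

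The 3 Nebl peaks spanned 210 kb, with gaps of 41.8 and 168 kb between neighbouring centres. The next peak on the chromosome was 1219 kb from the closest of them. Over all peaks the nearest other peak was a median of 197 kb away, with quartiles of 37.7 and 700 kb. The peaks of Pdlim3, Pdlim5 and Myom1 had their nearest neighbours at 209, 286 and 996 kb. None of these 3 neighbours lay in a gene of the 8: they were in introns of Snx25, Bmpr1b and Alk.

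Myom1 had the weakest of the 4 peaks. It encodes myomesin 1, which crosslinks myosin filaments at the M-band. The peak lay on chromosome 17 at 71429966 to 71430110, in intron 16 of 36 of the transcript NM_001083934 and 61.1 kb downstream of the TSS. Its score of 12.3 equalled the lower quartile of the list, 986 peaks were higher, and 497 of the 605 intronic peaks scored as high or higher. Its focus ratio of 0.846 was the highest of the 4, with 1247 of the 1483 peaks below it. The peak was thus low by score and high by focus ratio.

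**Figure D2:**
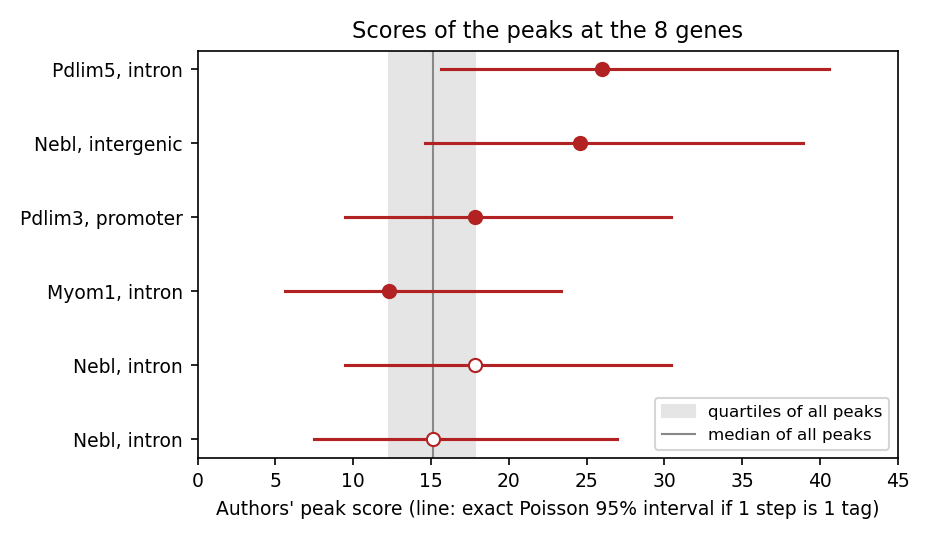
Authors' peak score of the 4 peaks listed under a member (filled) and the 2 further peaks inside Nebl (open), with exact Poisson 95% intervals if 1 score step is 1 tag. The grey band marks the quartiles of all 1483 peaks (12.3 and 17.8) and the line their median (15.1), and every interval overlaps the band.

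Counting error is wide at this depth. Every score in the list was a whole number of steps of about 1.37 (1.36825 before rounding), within the rounding of the scores to 3 digits, and if 1 step stands for 1 tag, the Pdlim5 peak rests on 19 tags, the Nebl peak on 18, the Pdlim3 peak on 13 and the Myom1 peak on 9. On the score scale the exact Poisson 95% interval ran from 15.7 to 40.6 at Pdlim5 and from 14.6 to 38.9 at Nebl. It ran from 9.47 to 30.4 at Pdlim3 and from 5.63 to 23.4 at Myom1. These 4 intervals overlap one another, so the order of the 4 scores is not resolved. At the 2 further peaks inside Nebl the intervals ran from 9.47 to 30.4 and from 7.51 to 26.9. Both overlap that of the peak listed under Nebl, so the order within Nebl is not resolved either. All these intervals cover counting error only, and tags without molecular identifiers need not be independent molecules. The focus ratios rest on the same tags and were given no interval, so their order among the 4 peaks was not tested either.

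**Figure D3:**
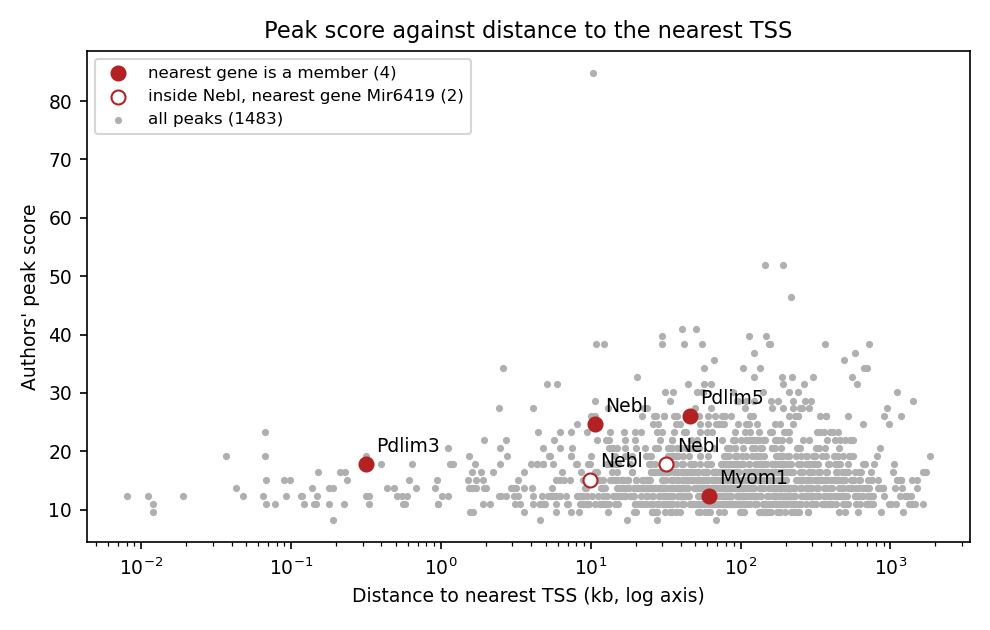
Authors' peak score against distance to the nearest TSS (kb, log axis) for all 1483 peaks (grey), the 4 peaks listed under a member gene (filled red) and the 2 peaks inside Nebl listed under Mir6419 (open red). Pdlim3 lies among the 48 promoter peaks at the left and the other red points lie at 9.82 to 61.1 kb.

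The genes without a listed peak were Actn2, Ldb3, Csrp3 and Myom2. None of them held a peak inside a transcript either, so neither way of assigning peaks gave them 1. In the order of protein-coding genes of GRCm38.p6, the 3 genes on either side of each of these 4 were nearest to no peak. One of them held a peak all the same: Grid1, a glutamate receptor family gene and the third from Ldb3 on one side, had 1 of score 16.4 in intron 4 of 15 (chromosome 14 35878342 to 35878486), which is listed under the microRNA gene Mir346. Ryr2, the gene of the calcium release channel of the sarcoplasmic reticulum, is among the neighbours of Actn2. For Actn2 the first protein-coding genes nearest to a peak were Adarb2, 11 genes away, and Gli3, 20 genes away on the other side. For Myom2 they were 53 and 22 genes away, for Ldb3 81 and 78, and for Csrp3 223 and 23. With genes that hold a peak counted too, the second value for Ldb3 was 3 and the other values stayed as they were. The list starts at a score of 8.21, or 6 steps, and a weaker site at these genes could not be seen in it.

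Across the genome 3.82% of the 26220 genes with a curated transcript were nearest to a peak, and 1.7% held 1 inside a transcript. Of the 8 genes, 4 were nearest to a peak and 3 (Pdlim5, Nebl and Myom1) held 1 inside. Since the grouping followed the peak list, nothing is read from these shares. The lengths of the 8 genes are given as a description. In GRCm38.p6 the genes with a peak were 392 kb (Nebl), 156 kb (Pdlim5), 124 kb (Myom1) and 34.1 kb (Pdlim3) long. Those without were 75.8 kb (Myom2), 71.3 kb (Actn2), 63.6 kb (Ldb3) and 17.7 kb (Csrp3) long. The 3 longest genes had the distal peaks, and Pdlim3, shorter than 3 of the genes without a peak, had the promoter peak.

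Among all 21031 protein-coding genes the share nearest to a peak went up with each class of length, a comparison chosen after seeing the data. It was 1.74% below 20 kb, the class of Csrp3, 2.54% for 20 to 50 kb, the class of Pdlim3, and 5.30% for 50 to 100 kb, the class of Ldb3, Actn2 and Myom2. Of genes of 100 to 200 kb, the class of Pdlim5 and Myom1, 10.1% were nearest to a peak (exact Clopper-Pearson 95% interval 8.59 to 11.8). Of genes of 200 kb or more, the class of Nebl, 20.6% were (18.1 to 23.3). The part of gene length in which of the 8 genes had a peak was not tested.

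**Figure D4:**
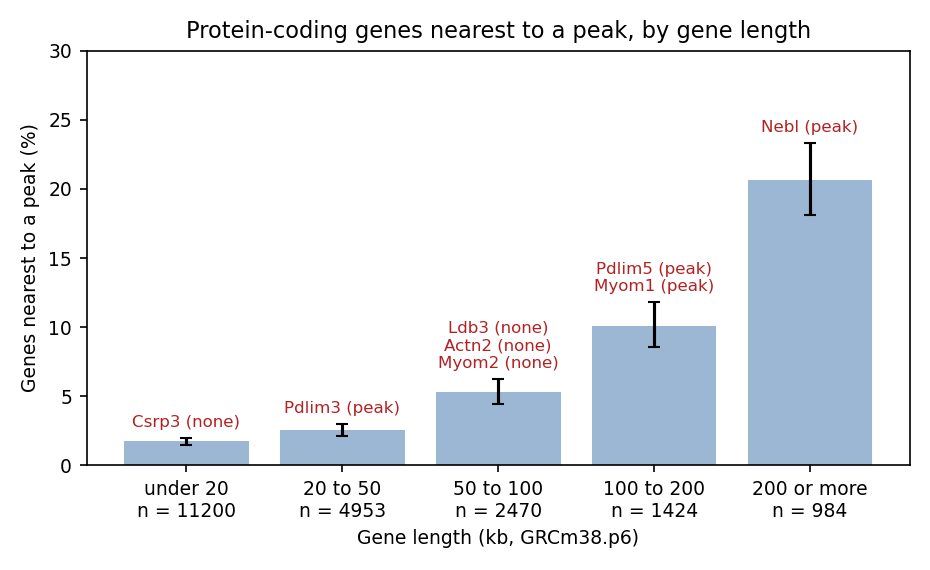
Percentage of protein-coding genes that are nearest to an ISL1 peak, by gene length in kb (GRCm38.p6), with exact Clopper-Pearson 95% intervals and the number of genes n in each class. The 8 genes are written above their class with whether they have a peak; the share goes up from 1.74% in the shortest to 20.6% in the longest class.

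The wider set of sarcomere genes was described with lists chosen from textbook knowledge while earlier results of this peak list were known. Of the 7 genes of the PDZ and LIM family, Pdlim3 and Pdlim5 were nearest to a peak, and Pdlim1, Pdlim2, Pdlim4, Pdlim7 and Ldb3 were not. Pdlim3, Pdlim5 and Ldb3 are among the genes chosen at the start on earlier results of this list. The family count therefore repeats that choice and is not read as a result about the family. Of 34 further Z-disc genes, with Pdlim1, Pdlim2, Pdlim4 and Pdlim7 counted again, 3 were nearest to a peak (8.82%, against 3.82% of all genes). Palld, Synpo2 and Fhl2 were 391, 160 and 75.3 kb long, against a median of 26.1 kb for the 34. With 3 genes from a list chosen with results known, the higher share is not read as a result. Of 9 further M-band genes none was nearest to a peak, nor was any of 17 genes of the thick and thin filaments. Among the filament genes were the myosin genes Myh6 and Myh7, the troponin genes Tnnt2 and Tnni3 and the cardiac actin gene Actc1. The filament genes are short, with a median of 18.4 kb and none of 100 kb or more. Against a background of 3.82%, 9 or 17 genes without a peak are not a result about these genes.

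The further Z-disc peaks scored 12.3 to 15.1, within the quartiles of the list. Palld, the gene of the actin-bundling protein palladin, had 2 intronic peaks. One of score 15.1 lay in intron 2 of 21 (chromosome 8 64309654 to 64309798), 70.8 kb upstream of the TSS nearest to it, and 1 of 13.7 in intron 10 (64086432 to 64086576), 16.5 kb upstream of another Palld TSS. Synpo2, which encodes the actin-binding protein synaptopodin 2 (myopodin), had a peak of 13.7 in intron 1 of 4 (chromosome 3 122907497 to 122907641). Fhl2, a gene of a LIM-only protein that binds titin, had an intergenic peak of 12.3 at 19.3 kb upstream (chromosome 1 43272811 to 43272955). None of these 4 peaks carried the promoter annotation, which leaves Pdlim3 as the only gene of these lists with a promoter peak.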

How the data were processed

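ISL1 binding was measured by chromatin immunoprecipitation and sequencing in 1 library. Per the labels' protocols, cells were fixed in 2 mM disuccinimidyl glutarate for 30 min and then 1% formaldehyde for 10 min, and sheared to 100 to 400 bp, which limits how finely a site is placed. Fixing protein to protein can also capture indirect binding. Bowtie, HOMER and mm9 are named per the submitters' processing notes. Per the file headers, HOMER annotated the peaks on mm9 from a table named after a comparison with the input. For caller settings, tool versions and duplicate filters: not given in the sources used here. Used as the authors gave them were the deposited peak score, the deposited focus ratio (a fraction between 0 and 1) and the signed distance to the nearest TSS.

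Peaks were taken by nearest gene, and also by the gene whose transcript holds them (621 of 627 peaks within transcripts matched). Gene names, order and lengths came from RefSeq GRCm38.p6 (1002 of 1003 nearest genes matched by Entrez identifier), as did the promoter windows. No test was run, because there was 1 library. The planned protein comparison was not run, as no protein sequences were used. Besides the named motifs, a MEF2-like motif (CTA and TAG with 4 bases between), GATAAG and the CArG box were searched. All 8 genes were named, with every further list gene that had a peak and the neighbours with a peak. The members and lists were chosen with earlier results of these data known. Alternatives were score, distance, assignment, repeats, merging, promoter definition and motif window. The step search, intervals and motif search were tested on simulated data. Python 3.11.15, pandas 2.3.3 and SciPy 1.17.1 were used.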

Additional observations from a re-analysis of the deposited data

How the results depend on the processing

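With only peaks within 30 kb of a TSS, 2 peaks at 2 genes remained (Pdlim3 and Nebl), against 4 peaks at 4 genes, and their median distance was 5.49 kb, against 28.3 kb. With only peaks at or above the list's median or its 75th percentile of score, the Myom1 peak dropped out and the median distance was 10.7 kb under each. The first move is set by the distance limit itself, and the second comes from losing the Myom1 peak at 61.1 kb. Counting the gene that holds a peak as well as the nearest gene gave 6 peaks at 4 genes, and the holding gene alone gave 4 peaks at 3 genes, without Pdlim3. The number of promoter peaks stayed at 1 with limits of 1, 5 and 10 kb. The median score ran from 16.4 to 24.6 over the 8 alternatives, against 21.2. Leaving out peaks on repeats or merging peaks within 1 kb took away none of the 4. Promoter windows with a TAAT numbered 6 of 13 with 100 bases before to 50 after the start (33.9% of all windows) and 7 of 13 on the forward strand only (41.2%), against 12 of 13. No paired analysis was possible because there was 1 ISL1 library. The score cut-off of the list limits what could be seen at genes without a peak.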

Other observations

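Other genes of the contractile apparatus and of actin organisation, picked after their values were seen, also had peaks. Mylk3, the cardiac myosin light chain kinase gene, had 1 of score 19.2 in intron 1, 1.53 kb downstream of the TSS (chromosome 8 87903334 to 87903478). Tpm3, a tropomyosin gene, had 1 of 13.7 at 1.94 kb from the nearest TSS, in intron 2 of 9. Cald1, which encodes the actin-binding protein caldesmon, had 1 of 12.3 in intron 1 at 8.07 kb. Filip1l, named for an interaction with filamin A, had 3 intronic peaks of 27.4, 21.9 and 12.3, and Limch1 had 1 of 12.3. The peak of Syne1, which encodes a nuclear envelope protein with spectrin repeats, was intergenic and 115 kb from the TSS, with a score of 16.4.

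In the promoter windows of the 8 genes, the CArG box, the motif of serum response factor, was found in 4 of 13 windows, against 1.63% of all windows. These were the 2 overlapping windows of Ldb3, the window of Myom1 and 1 window of Nebl. That Nebl window belongs to the furthest downstream of the 4 Nebl start sites, and whether it acts as a promoter was not tested. The MEF2-like motif is a loose pattern that allows any 4 bases between CTA and TAG. It was found in the same 2 Ldb3 windows, against 3.69% of all windows. As these 2 windows overlap, they do not count independently. The Pdlim3 window held neither the CArG box nor the MEF2-like motif. The E-box was in 9 of 13 windows (72.3% of all windows), GGGCGG in 4 of 13 (35.7%) and GATAAG in 0 of 13 (7.44%). With so few windows these counts describe the sequences only.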
